A study of Mus musculus with 2 samples.

Results

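The levels of 9 interferon-inducible genes were followed in lung endothelial cells: 4 guanylate-binding proteins (Gbp2, Gbp3, Gbp4 and Gbp7), 4 immunity-related GTPases (Igtp, Irgm1, Irgm2 and Iigp1) and the transcription factor Irf1. The 9 members were taken by symbol from the 31053 genes listed in the deposited matrices, and the set was chosen with earlier results of these data known. Guanylate-binding proteins and immunity-related GTPases are large GTPases that cells make in response to interferons. They assemble on membranes, above all on the vacuoles that enclose intracellular parasites and bacteria, and are best known for cell-autonomous defence. Among the immunity-related GTPases, Igtp, Irgm1 and Irgm2 belong to the regulatory type that sits on the cell's own membranes, while Iigp1 is an effector that they hold in check. Irf1 is a transcription factor that is itself induced by interferon gamma and that acts on the promoters of many interferon-inducible genes.

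Wild-type C57BL/6 mice received either PBS or 200000 B16-F10 cells each through the tail vein, and lungs were taken 6 h later. B16-F10 is a mouse skin melanoma line, so the design asks how lung endothelial cells differ while circulating melanoma cells colonise the organ. PECAM1-positive lung cells of 2 mice per treatment were pooled into 1 library, giving 1 control and 1 metastatic library made with the 10x Genomics 3′ kit. The unique molecular identifiers (UMIs) count captured RNA molecules, and the 2 libraries held 67929614 and 64733724 UMIs.

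With 1 library per group there was no spread between replicates and no test between groups, and every difference given here is one between these libraries. Levels are given as CPM, the UMIs of a gene per 1e6 UMIs of the cells over which they were summed. Each 95% interval, printed in parentheses, covers counting error only and not the variation between cells or between mice. It treats every UMI as independent, although the UMIs of a member gathered in some cells. In control general capillary cells, the 51 cells richest in a member held from 7.69% (Irf1) to 20.6% (Igtp) of its UMIs. The 3′ counts are compared within a gene and not between genes.

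A barcode counted as a cell if it held 1000 to 5000 genes and if mitochondrial transcripts made up less than 20% of its UMIs, which gave 7134 cells in the control and 6466 in the metastatic library, of which 16 barcodes were called in both. An endothelial class was given to cells with 2 or more of its markers: Ednrb, Fibin and Tbx2 for aerocytes, Slc6a2, Car8 and Bst1 for veins, and Gja5, Bmx and Fbln5 for arteries. General capillary cells had 2 or more of Gpihbp1, Aplnr, Kit and Lpl and met none of these rules. There were 5020 control and 4519 metastatic general capillary cells, 1364 and 1086 aerocytes, 247 and 304 vein cells, and 63 and 59 artery cells. The median depth of general capillary cells was 5950.5 and 6275 UMIs.

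The class names were checked against markers that the rule had not used. Car4, Apln, Emp2 and Chst1 were highest in aerocytes and Vwf, Nr2f2, Bgn and Dnm3 in vein cells in both libraries. Of 5 artery markers, 4 were highest in artery cells, while Sox17 was highest in general capillary cells, and artery cells also carried Vwf at 1813 and 1519 CPM. Only Glp1r and Tek of 4 general capillary markers were highest there, so that class is in part defined by the absence of the others. The sort had used PECAM1, which platelets and leukocytes also carry, and RNA of such cells was found in the classes. The 3 pan-leukocyte markers summed to 35.0 CPM in control and 45.1 CPM in metastatic general capillary cells, the 3 platelet markers to 159.6 and 247.5 CPM, and the 4 epithelial markers to 1683 and 990.3 CPM. The 4 melanoma markers summed to 1.81 and 2.31 CPM.

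The start regions of the genes are shown first because most members share short letters there that are known to bind interferon-activated factors. RefSeq windows of the GRCm38.p6 build were at hand for 7 of the 9 members, all but Gbp4 and Iigp1, and the 250 bases before each start were searched on both strands. The core of the interferon-stimulated response element (ISRE; GAAA, any 2 bases, GAAA), which IRF factors read, was found before 6 of the 7 genes, all except Irf1. It was found before 3.46% of all 27025 genes with a window, or in 2.98% of all 32851 windows. The core of the gamma-activated site (GAS, TTCNNNGAA) was found before 4 of the 7, against 8.13% of all genes and 7.02% of all windows. Irf1 alone held the NF-kB consensus, against 4.46% of all genes and 3.90% of all windows. A match is a likeness of letters and was not tested as a binding site. The stretches below run 5′ to 3′ along the gene, with ISRE, GAS and NF-kB matches in capitals on either strand. Those of Gbp2 and Irgm1 lie in an annotated exon and are kept short.
Gbp7, chr3:142530225-142530335, plus strand, 1 ISRE and 2 GAS matches: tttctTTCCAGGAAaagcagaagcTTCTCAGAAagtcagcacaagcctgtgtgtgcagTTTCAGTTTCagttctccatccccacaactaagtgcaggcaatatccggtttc
Gbp3, chr3:142559926-142560025, plus strand, 2 overlapping ISRE matches: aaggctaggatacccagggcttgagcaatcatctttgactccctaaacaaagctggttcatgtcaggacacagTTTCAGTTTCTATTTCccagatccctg
Gbp2, chr3:142620594-142620623, plus strand, 1 ISRE match: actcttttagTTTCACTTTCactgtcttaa
Irgm1, chr11:48871428-48871457, minus strand, 2 overlapping ISRE matches: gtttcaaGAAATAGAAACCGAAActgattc
Igtp, chr11:58199456-58199555, plus strand, GAS then ISRE: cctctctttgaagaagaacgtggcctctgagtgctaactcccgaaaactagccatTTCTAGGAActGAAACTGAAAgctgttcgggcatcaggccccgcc
Irgm2, chr11:58214877-58214976, plus strand, GAS then ISRE: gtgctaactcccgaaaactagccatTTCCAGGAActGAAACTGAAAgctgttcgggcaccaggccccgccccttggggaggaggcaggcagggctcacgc
Irf1, chr11:53769914-53770013, plus strand, GAS then NF-kB: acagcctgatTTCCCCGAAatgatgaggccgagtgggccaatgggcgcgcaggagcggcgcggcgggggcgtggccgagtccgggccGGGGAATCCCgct

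The stretches of Igtp and Irgm2 are close copies. Where they overlap without gaps, 68 of 70 bases were identical, and both hold the GAS match followed directly by the ISRE match. Gbp7, Gbp3 and Gbp2 lie in a row on chromosome 3, between 142530342 and 142638008 in the GENCODE annotation of GRCm38, and Gbp4 lies on chromosome 5 (105115767 to 105139586). Irgm1 (48861968 to 48871683), Irf1 (53770014 to 53778374), Igtp (58199556 to 58207591) and Irgm2 (58199618 to 58222782) lie on chromosome 11, and Iigp1 lies on chromosome 18. The GENCODE start of Irgm2 lies beside that of Igtp, upstream of the RefSeq start used for the Irgm2 stretch above. That stretch thus lies inside the gene as GENCODE draws it. In this annotation Igtp and Irgm2 overlap on the same strand and share 162 exon bases, 8.01% of those of Igtp. Gbp4 shares 61 exon bases with Gbp8 and 60 with Gbp9, and Gbp7 overlaps a pseudogene that is not in the matrices. The libraries count 3′ ends, and where the shared bases lie relative to the reads was not examined. How reads were split between these close relatives was not tested. Irf1 overlaps Gm17334 on the opposite strand.

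**Figure D1:**
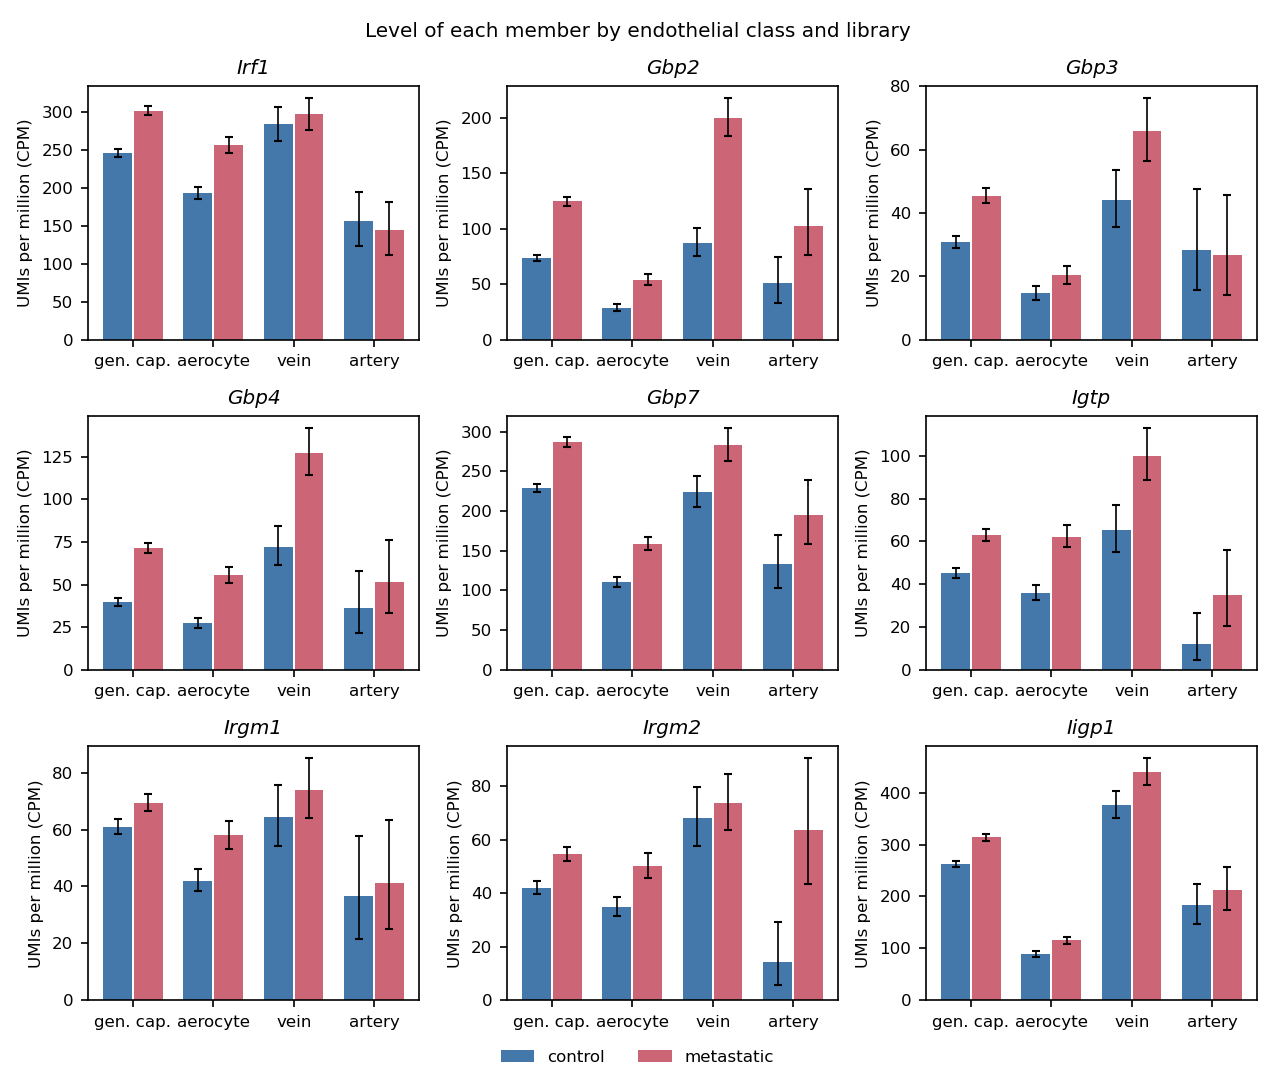
Level of each of the 9 members in CPM (vertical axis) in the 4 endothelial classes, with blue bars for the control and red bars for the metastatic library and error bars for the 95% counting interval. In general capillary cells and aerocytes the metastatic bar is the higher one for all 9 members, while artery bars rest on 59 to 63 cells and have wide intervals.

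All 9 members were higher in the metastatic than in the control library over the 4 endothelial classes together. Their median log2 ratio of metastatic over control was 0.42, against 0.03 over all genes with 50 or more UMIs. The share of all genes that were higher in this comparison was not counted. The summed level of the members was 926.4 CPM in control and 1237 CPM in metastatic cells. The log2 ratio of that sum was 0.42 (0.40 to 0.44). In that comparison 4 members passed a log2 ratio of 0.5, a threshold that 7.02% of the 12783 genes with 50 or more UMIs passed in this direction. The 4 were Gbp2, Gbp3, Gbp4 and Igtp. In general capillary cells alone the Igtp ratio was 0.48. The pooled ratios also include a difference in class shares, whose part was not tested. Aerocytes made up 19.1% of control and 16.8% of metastatic cells, and vein cells 3.46% and 4.70%. No member passed −0.5, which 2.78% of the genes did.

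Irf1, the regulator among the members, was at 246.2 CPM in control and 301.8 CPM in metastatic general capillary cells, a log2 ratio of 0.29 (0.25 to 0.34). In aerocytes it was at 193.0 and 256.3 CPM, with a log2 ratio of 0.41 (0.33 to 0.49). Both intervals lie above 0. In vein cells it was at 283.8 and 297.1 CPM and in artery cells at 156.2 and 143.9 CPM, and both of these ratios, 0.07 (−0.09 to 0.22) and −0.12 (−0.61 to 0.37), had intervals that held 0. A higher Irf1 level was thus measured in the capillary classes and could not be told from no difference in the larger vessels at this depth.

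Gbp2, a guanylate-binding protein that anchors to membranes by a lipid tail, had large ratios in every class. It was at 73.3 CPM in control and 124.5 CPM in metastatic general capillary cells, a log2 ratio of 0.76 (0.69 to 0.84). Aerocytes held 28.8 and 54.0 CPM, vein cells 87.5 and 199.9 CPM and artery cells 50.7 and 102.8 CPM. The intervals of the 2 libraries did not overlap in any class, and the log2 ratio reached 1.19 (0.95 to 1.44) in vein cells. A single cell held 42 of the 535 metastatic vein UMIs, and another held 5 of the 25 control artery UMIs. When 2000 UMIs were drawn at random from every cell, 11.7% of control and 19.4% of metastatic general capillary cells held a Gbp2 UMI, so more cells carried the transcript at equal depth. In barcodes with epithelial markers and no Cdh5 or Cldn5 UMI, the thinned share was 1 of 27 and 2 of 25 cells.

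Gbp4 followed a like course. It was at 39.7 and 71.6 CPM in general capillary cells, with a log2 ratio of 0.85 (0.75 to 0.95), the highest among the members in that class. In aerocytes, at 27.2 and 55.5 CPM, the ratio was 1.03 (0.82 to 1.24), and in vein cells, at 72.1 and 127.4 CPM, it was 0.82 (0.55 to 1.10). The ratio in artery cells, from 18 and 25 UMIs, was 0.49 with an interval that held 0.

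Gbp3, a further member of the chromosome 3 cluster, was at 30.8 and 45.4 CPM in general capillary cells, a log2 ratio of 0.56 (0.44 to 0.68), 14.6 and 20.2 CPM in aerocytes, and 44.0 and 65.8 CPM in vein cells. In artery cells 14 and 13 UMIs were counted, too few to show a difference of this size. Gbp7 had the smallest ratio of the 4 guanylate-binding proteins in general capillary cells, 0.33 (0.28 to 0.37), from 228.5 and 286.8 CPM. Its ratio was larger in aerocytes, 0.52 (0.41 to 0.63), from 110.8 and 159.0 CPM, and was 0.34 (0.17 to 0.51) in vein cells, from 223.9 and 283.3 CPM.

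Among the regulatory immunity-related GTPases, Igtp (also called Irgm3) had the largest ratios in general capillary cells, aerocytes and vein cells. It was at 45.1 CPM in control and 63.02 CPM in metastatic general capillary cells, a log2 ratio of 0.48 (0.38 to 0.58), and at 35.8 and 62.2 CPM in aerocytes, a ratio of 0.80 (0.61 to 0.98). Vein cells held 65.3 and 100.2 CPM. In each of these classes the intervals of the 2 libraries were apart.

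Igtp RNA was also abundant in another cell type of the sort. In the 20 control and 26 metastatic barcodes with platelet markers and no Cdh5 or Cldn5 UMI, Igtp stood at 470.0 CPM (340.2 to 633.1) and 429.0 CPM (312.9 to 574.0), about as high in both libraries, while the other 8 members had 5 UMIs or fewer each in either library. Platelet marker RNA was higher in metastatic than in control general capillary cells (159.6 and 247.5 CPM) and aerocytes (69.0 and 143.8 CPM), and so moved with Igtp. When every barcode with a Pf4, Ppbp or Gp9 UMI was left out, which kept 4208 and 3528 general capillary cells, the Igtp log2 ratio was 0.60 (0.48 to 0.72) there and 0.74 (0.53 to 0.94) in aerocytes. With all barcodes these ratios were 0.48 and 0.80. Without those barcodes the ratio was thus larger in general capillary cells and smaller in aerocytes. Platelet RNA in barcodes without a UMI of these genes was not tested.

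Irgm2 was at 42.1 and 54.8 CPM in general capillary cells, with a log2 ratio of 0.38 (0.28 to 0.48), and at 35.0 and 50.3 CPM in aerocytes, with a ratio of 0.52 (0.33 to 0.72). In vein cells, at 68.0 and 73.6 CPM, the interval held 0. In artery cells 7 UMIs were counted in the control and 31 in the metastatic library, with a log2 ratio of 2.17 (0.96 to 3.59), of which 6 metastatic UMIs came from 1 cell. Irgm1, the third regulatory GTPase, differed least among the members in general capillary cells, at 61.1 and 69.5 CPM with a log2 ratio of 0.19 (0.10 to 0.27). It was at 42.0 and 58.0 CPM in aerocytes, where the ratio was 0.46 (0.28 to 0.64).

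Iigp1, the effector GTPase, was at 262.8 and 313.8 CPM in general capillary cells, a log2 ratio of 0.26 (0.21 to 0.30), at 88.3 and 115.3 CPM in aerocytes, a ratio of 0.38 (0.26 to 0.51), and at 377.1 and 440.3 CPM in vein cells, a ratio of 0.22 (0.09 to 0.35). All 3 intervals lie above 0, yet the differences were small next to that of Gbp2. Little Iigp1 RNA was found in barcodes of other cells. Those with epithelial markers held 1 UMI in the control and 0 in the metastatic library, which allows up to 12.0 CPM there, and those with T, NK or B cell markers held 2 and 2. Those with platelet markers held 3 and 5 UMIs, which is 32.8 CPM (6.76 to 95.8) and 47.7 CPM (15.5 to 111.2). After thinning, 31.5% of control and 36.1% of metastatic general capillary cells held an Iigp1 UMI, against 1 of 27 and 0 of 25 cells with epithelial markers, whose median depth was 13951.5 and 10918 UMIs.

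**Figure D2:**
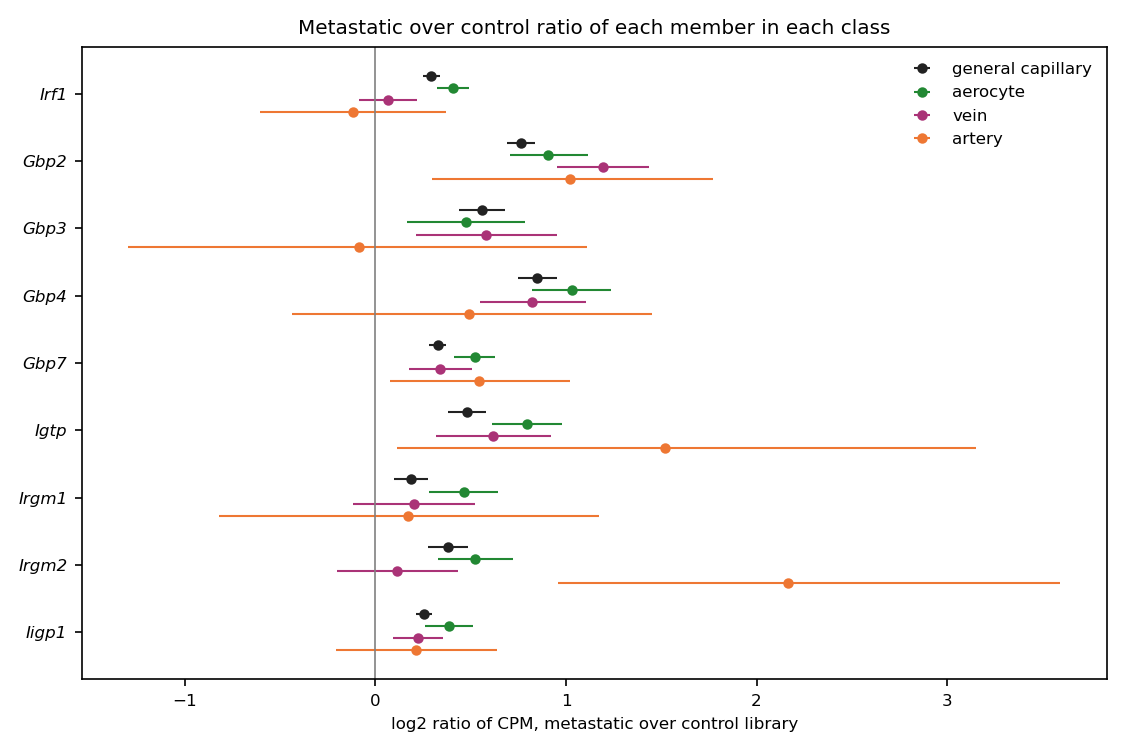
Log2 ratio of the metastatic over the control library (horizontal axis) for each member, with 1 colored point per endothelial class and bars for the 95% counting interval. All general capillary and aerocyte points lie to the right of 0 with their whole interval, and the widest bars are those of artery cells, for example 0.96 to 3.59 for Irgm2.

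In general capillary cells the 9 members stood high among all genes. Their median log2 ratio was 0.38, against 0.02 over the 12165 genes with 50 or more UMIs, and 3 of the 9 passed 0.5, against 6.19% of all genes in that direction and 3.44% in the other, where no member lay. All 9 had an interval above 0, which 23.8% of the genes had. Gbp4 had a higher ratio than 98.0% of these genes and Irgm1, the lowest member, than 78.0%. In aerocytes the median was 0.52 and 5 of the 9 passed 0.5, against 5.5% of 10464 genes, and 0 of the 9 passed −0.5, against 2.61%. All 9 had an interval above 0 there, against 15.6% of the genes. In vein cells the median was 0.34 and 4 of the 9 passed 0.5, against 8.01% of 8241 genes, and 0 passed −0.5, against 4.62%. An interval above 0 was found for 6 of the 9, against 10.0% of the genes. In artery cells only 4 of the 9 members reached 50 UMIs, and 2 of those 4 passed 0.5, against 9.97% of 3539 genes, and 0 passed −0.5, against 8.11%. The same 2 had an interval above 0, against 7.77% of the genes.

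By their summed UMIs, the 4 guanylate-binding proteins among the members differed more between the libraries than the 4 immunity-related GTPases. In general capillary cells the 4 guanylate-binding proteins together had a log2 ratio of 0.50 (0.47 to 0.54) and the 4 immunity-related GTPases one of 0.29 (0.25 to 0.32), and the difference of the ratios was 0.22 (0.17 to 0.27). The same difference was 0.16 (0.05 to 0.28) in aerocytes and 0.40 (0.25 to 0.56) in vein cells. In artery cells it was 0.07 with an interval that held 0. These sums weigh each gene by its UMIs, and Iigp1 gave 9505 of the 15177 metastatic immunity-related GTPase UMIs in general capillary cells. Single members overlapped there, with Gbp7 (0.33) below Igtp (0.48) and Irgm2 (0.38). For further guanylate-binding and immunity-related genes with 50 or more UMIs, the median ratios were 0.43 and 0.41 in general capillary cells. They were 0.67 and 0.60 in aerocytes and 0.80 and 0.40 in vein cells.

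**Figure D3:**
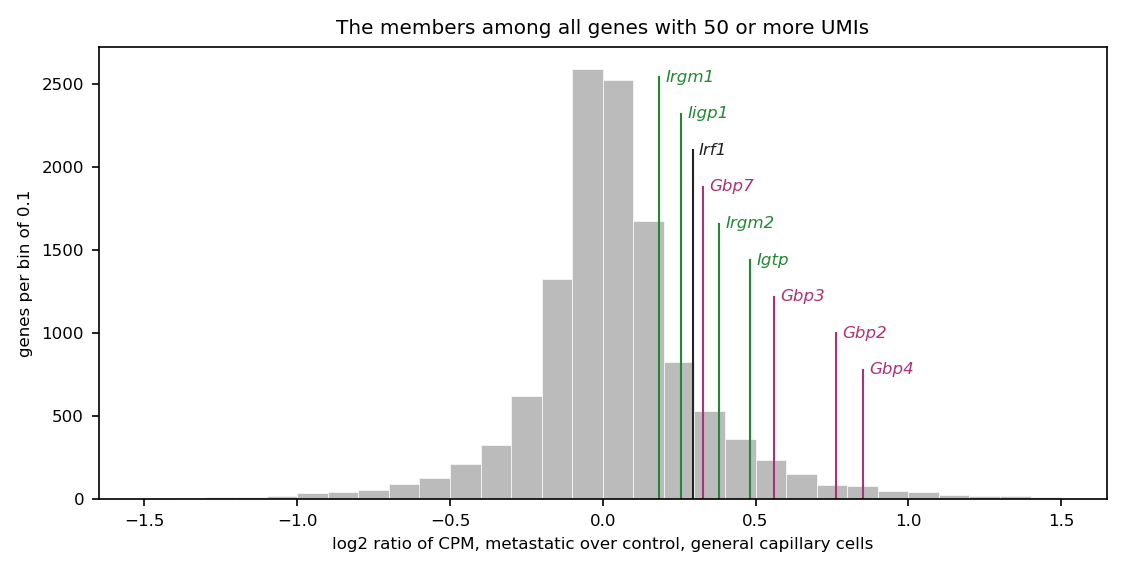
Number of genes (vertical axis) by log2 ratio of the metastatic over the control library in general capillary cells (horizontal axis, bins of 0.1), with colored lines at the values of the 9 members. Of the 12165 genes, 12108 lie within the range drawn, and all 9 members lie right of the peak near 0, from 0.19 for Irgm1 to 0.85 for Gbp4.

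The classes also differed from each other within a library. Vein cells held the highest level of 8 of the 9 members in the control and of 7 in the metastatic library, and the lowest level was in aerocytes or artery cells for all 9. How often all genes have their extremes in these classes was not counted. Not every highest level stood apart from the next class. Irgm1 and Gbp7 in vein and general capillary cells did not in either library. Nor did Irgm2 in metastatic vein and artery cells or Irf1 in metastatic general capillary and vein cells. Some of the lowest levels were not apart either, such as that of Gbp4 in control aerocytes from that in artery cells. Against general capillary cells, 7 members in the control and 6 in the metastatic library were higher in vein cells with an interval above 0, against 12.9% and 16.3% of all genes. Gbp7 and Irgm1 were among those not apart from general capillary cells in either library.

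Aerocytes held less of all 9 members than general capillary cells in the control library, with intervals apart from 0, as was found for 28.1% of all genes. The gap was widest for Iigp1, which was 2.98-fold higher in general capillary cells, and for Gbp2, which was 2.55-fold higher. It was narrow for the regulatory GTPases Irgm2 (1.20-fold) and Igtp (1.26-fold). In the metastatic library, Igtp (1.01-fold) and Irgm2 (1.09-fold) were not apart between the classes and the other 7 members were, against 26.0% of all genes, while Iigp1 was still 2.72-fold higher in general capillary cells.

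The ratio of the libraries was larger in aerocytes than in general capillary cells. For the 9 members together it was larger by 0.16 (0.11 to 0.21), and 4 single members, Gbp7, Igtp, Irgm1 and Irf1, had a difference with an interval above 0, against 7.68% of 10424 genes. Aerocytes held 7.68 and 26.6 CPM of the pan-leukocyte markers and 630.4 and 90.9 CPM of the epithelial markers. Without barcodes that held a leukocyte UMI, the summed ratio in aerocytes was 0.58, against 0.53 with them.

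In vein cells the pattern of the members was uneven. Gbp2 had a larger ratio there than in general capillary cells, by 0.43 (0.18 to 0.68), and Irf1 a smaller one, with a difference of −0.23 (−0.39 to −0.07). The summed ratio of the 9 members, 0.37 (0.30 to 0.44), was close to that of general capillary cells, with a difference between −0.07 and 0.07. RNA of other cells differed between the vein cells of the 2 libraries: myeloid markers summed to 28.6 and 596.1 CPM and epithelial markers to 122.8 and 3641 CPM. Leaving out barcodes with over 10 epithelial UMIs, which removed 1 of 247 and 3 of 304 vein cells, gave 1.22 for Gbp2 and 0.39 for the sum, and leaving out those with a leukocyte UMI gave 1.20 and 0.40. With all 3 vein markers required (140 and 175 cells), the vein ratios were 1.57 for Gbp2, 1.35 for Igtp and 0.30 for Irf1.

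The artery class is small, and its summed ratio of 0.42 (0.21 to 0.63) rested on 321 and 424 UMIs. Of the single members, Gbp2, Gbp7, Igtp and Irgm2 had intervals above 0, and Igtp and Irgm2 rested on 6 and 7 control UMIs. With all 3 artery markers required, 12 control and 7 metastatic cells were left and the summed ratio was 0.02 (−0.48 to 0.52). The pan-leukocyte markers in artery cells were at 8.11 and 143.9 CPM, and their part in the artery values was not tested.

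The relatives and the pathway of the members were read from gene lists in general capillary cells, where an interval above 0 was found for 23.8% of all genes and one below 0 for 15.7%. Of 7 further guanylate-binding protein genes, 6 were in the files and 4 reached 50 UMIs, and all 4 were higher in the metastatic library with an interval above 0, 1 of them past 0.5. Gbp5, which promotes inflammasome assembly, had the largest log2 ratio, 0.65 (0.51 to 0.78), from 22.6 and 35.4 CPM, followed by Gbp6 (0.47), Gbp8 (0.38) and Gbp9 (0.33). Of 11 further immunity-related and related inducible GTPase genes, 9 reached 50 UMIs, 6 had an interval above 0 and 3 passed 0.5. Among them Tgtp2, at 19.3 and 32.1 CPM, had a ratio of 0.73 (0.58 to 0.88) and Ifi47, at 108.5 and 172.5 CPM, one of 0.67 (0.61 to 0.73), both larger than any of the 4 immunity-related GTPase members in this class. The other 3, F830016B08Rik (−0.12), 9930111J21Rik1 (0.22) and Gvin1 (0.13), had intervals that held 0.

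Of 12 genes of interferon gamma signalling, 11 reached 50 UMIs and all 11 had an interval above 0, with a median log2 ratio of 0.29, and 3 passed 0.5. At these counts small ratios have such intervals too, as for Irf2 at 0.07 (0.03 to 0.11). The ratio was 0.37 (0.32 to 0.42) for the receptor chain Ifngr1 and 0.19 (0.11 to 0.26) for Ifngr2. It was 0.28 for the kinase Jak1 and 0.29 for Jak2. The inhibitors of the pathway were higher as well, with 0.32 for Socs1 and 0.59 for the phosphatase Ptpn2. Ifng itself, the ligand, had 7 UMIs in control general capillary cells, 5 of them in 1 cell, and 0 in metastatic ones.

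Of 12 further targets of interferon gamma, 11 reached 50 UMIs, 9 had an interval above 0, 4 passed 0.5 and 1 had an interval below 0. Ciita, the master regulator of MHC class II genes, had a ratio of 1.13 (0.90 to 1.36) from 7.07 and 15.5 CPM, the immunoproteasome subunit Psmb8 one of 0.50 (0.46 to 0.55) and the checkpoint ligand Cd274 one of 0.59 (0.39 to 0.78). The chemokine Cxcl10 had 384 and 944 UMIs, of which 192 and 196 came from a single cell in each library. The one gene below 0 was the chemokine Cxcl9, with 114 and 15 UMIs, and 93 of the 114 came from a single control cell.

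In general capillary cells the summed log2 ratio of the 9 members was 0.37 (0.35 to 0.39). That of the type I interferon genes was smaller, 0.29 (0.26 to 0.32). Of 10 such genes 8 had an interval above 0, with a median of 0.32, and 1 passed 0.5, Isg15 at 0.51 (0.44 to 0.57), while Ifit1 (0.05) and Rsad2 (−0.05) had intervals that held 0. Genes of membrane processes linked to the GTPases showed little difference. The 7 genes of the ATG conjugation machinery, which places the GTPases on vacuoles, had a median of 0.03, with 2 intervals above and 2 below 0. The 3 atlastins, relatives of the guanylate-binding proteins that shape the endoplasmic reticulum, had a median of 0.00 and no interval apart from 0.

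**Figure D4:**
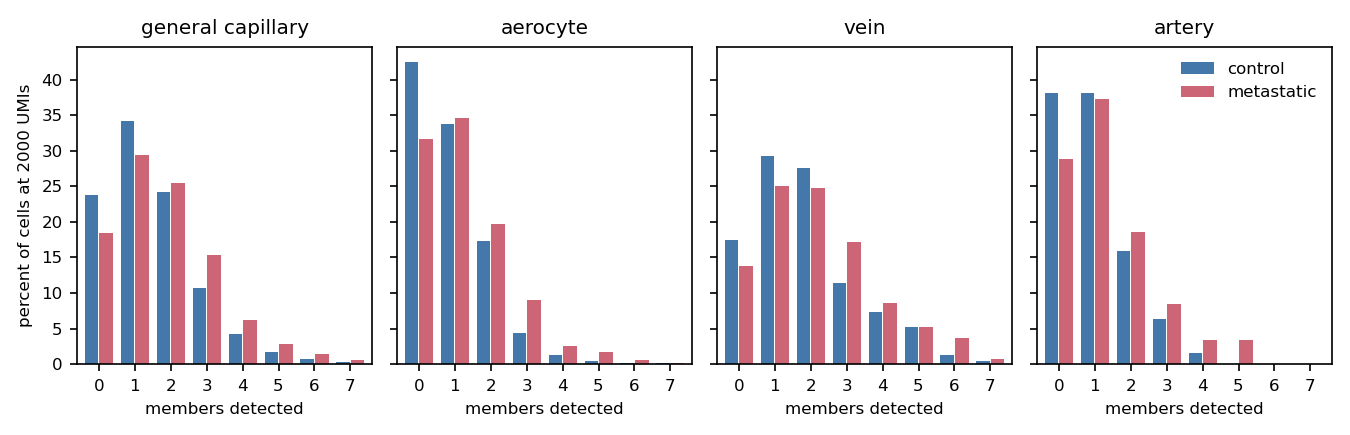
Percent of cells (vertical axis) by number of the 9 members detected (horizontal axis) after thinning each cell to 2000 UMIs, by endothelial class, blue for the control and red for the metastatic library. The red bars lie above the blue ones from 2 members upward in general capillary cells, where 17.7% of control and 26.7% of metastatic cells held 3 or more.

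More cells held several members at once in the metastatic library. At 2000 UMIs per cell, 877 of 4947 control general capillary cells (17.7%, 16.7 to 18.8) and 1192 of 4461 metastatic ones (26.7%, 25.4 to 28.0) held UMIs of 3 or more of the 9 members, a difference of 8.99 percentage points (7.30 to 10.7). The mean over all possible thinnings, which does not depend on a random draw, was 18.3% and 26.3%. Without thinning the shares were 57.9% and 69.3%. The 73 control and 58 metastatic cells with fewer UMIs were left out of the thinned values.

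The other classes showed the same order. Among aerocytes 6.43% of control and 14.1% of metastatic cells held 3 or more members, with intervals apart. Among vein cells 25.6% (20.3 to 31.5) and 36.3% (30.9 to 42.0) did, and in artery cells 5 of 63 and 9 of 59, and in both of these classes the intervals overlapped.

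Within a library the members tended to be found in the same general capillary cells. For all 36 pairs in each library, a member was detected in a larger share of the cells that held the other member than of the cells that did not. Among all pairs of the 5268 control and 4224 metastatic genes detected in at least as many cells as the least detected member, 50.9% and 51.1% were of this kind, with a median ratio of 1.00 in both libraries, computed on another random draw in which all 36 member pairs were again above 1. Read in both directions, the members' ratio of the shares had a median of 1.58 in the control and 1.545 in the metastatic library and a range from 1.06 for Irf1 in metastatic cells with Gbp2 to 3.67 for Igtp in control cells with Irgm2. Igtp and Irgm2 also share exon bases, as given above, and pairs within a cell share its library and capture.

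**Figure D5:**
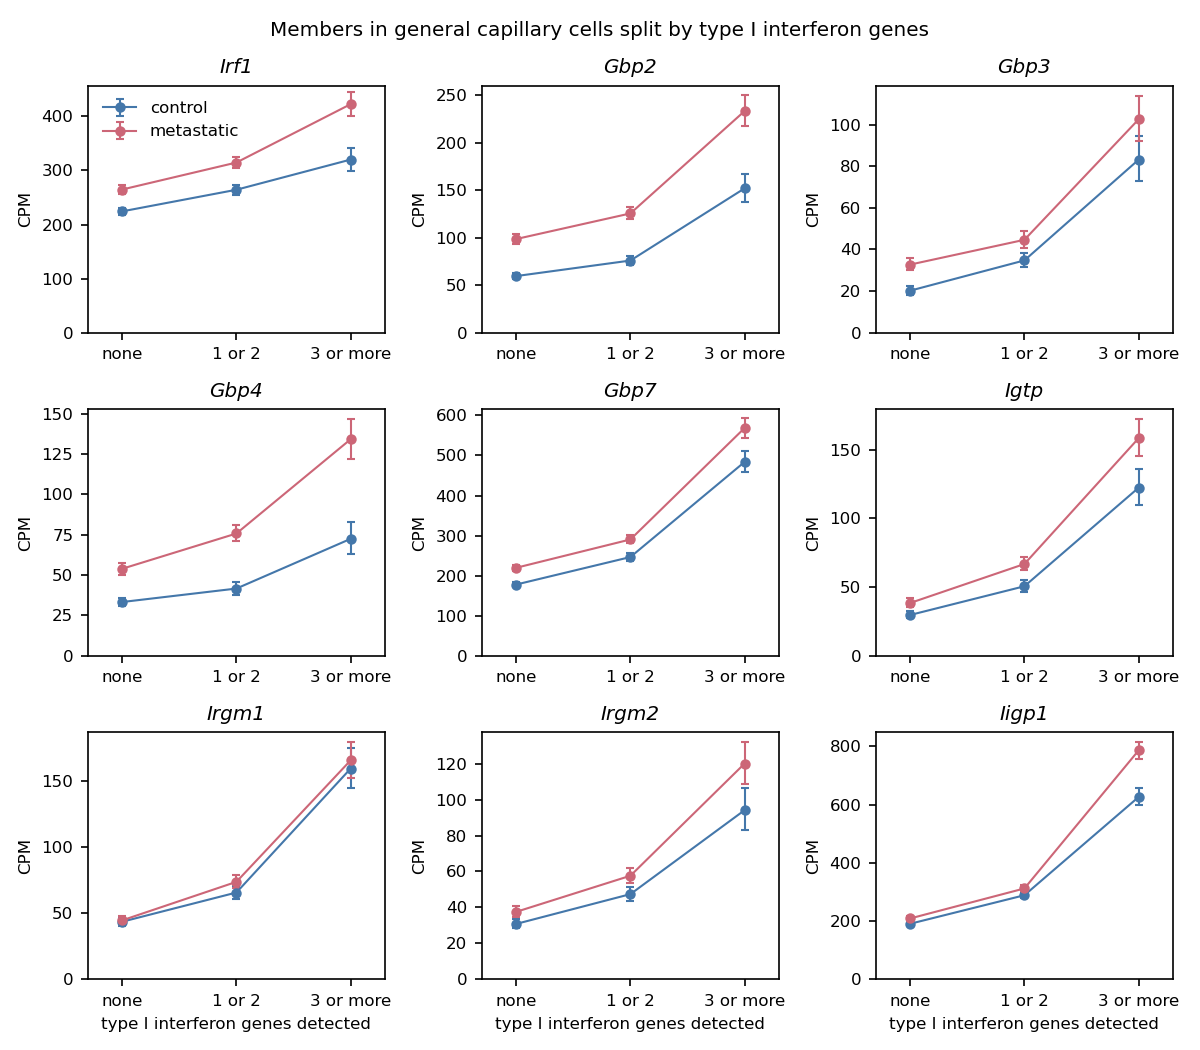
Level of each member in CPM (vertical axis) in general capillary cells with no, 1 or 2, or 3 or more of 10 type I interferon genes detected at 2000 UMIs (horizontal axis), blue for the control and red for the metastatic library, with 95% counting intervals. All members are higher in cells with 3 or more of these genes than in cells with none, and the slope of Irf1 is the shallowest, 1.43-fold in the control library. How many of all genes are higher in such cells was not counted.

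General capillary cells were then split by 10 type I interferon genes that do not include the members. Of the thinned cells, 8.71% in the control and 11.1% in the metastatic library held 3 or more of these genes, while 56.5% and 50.2% held none. The 9 members together were 2.61-fold higher in the former than in the latter cells in the control library and 2.69-fold higher in the metastatic library. The median depth of these cells was 6157 against 5921.5 UMIs in the control and 6499 against 6262.5 in the metastatic library. What share of all genes differs across this split was not counted, so how far it is particular to the members was not tested.

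The members followed this split to different degrees. In the control library the ratio was largest for Gbp3 (4.12-fold) and Igtp (4.11-fold), followed by Irgm1 (3.67-fold), Iigp1 (3.29-fold) and Irgm2 (3.06-fold). Gbp4 (2.17-fold) and Irf1 (1.43-fold) differed least. In the metastatic library Igtp was again at 4.11-fold, Iigp1 at 3.77-fold and Irf1 at 1.60-fold.

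The difference between the libraries was present in cells with and without type I interferon genes detected after thinning. Isg15 was detected in 31.4% of control general capillary cells with all UMIs and in 16.4% of them after thinning. Cells counted here as having none of the 10 genes can thus still hold such transcripts. Whether the difference is present in cells that lack them was not tested. In cells with none of the 10 genes the summed level of the members was 809.6 and 998.8 CPM, a log2 ratio of 0.30 (0.27 to 0.34), and in cells with 3 or more it was 2113 and 2691 CPM, a ratio of 0.35 (0.30 to 0.40). Gbp2 (0.73) and Gbp4 (0.69) had the largest ratios in the former cells, with Gbp3 (0.70). In the cells between, with 1 or 2 of the genes, the summed ratio was 0.29 (0.25 to 0.32). Irgm1 had ratios of 0.03 (−0.12 to 0.19) in cells with none, 0.17 (0.02 to 0.31) in cells with 1 or 2 and 0.06 (−0.13 to 0.24) in cells with 3 or more.

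Across the 8 values of 4 classes in 2 libraries, genes whose log2 level was among the most like that of the summed members were Hmgn1 (Pearson r = 0.986), Arhgef5 (0.986), Tmsb10 (0.978) and Plscr2 (0.973), out of 4676 genes that reached 50 CPM in at least 1 of the 8. These r values describe 8 points that share 2 libraries, and the artery points rest on few UMIs. Among the members, r with the sum ran from 0.737 for Irgm2 to 0.958 for Gbp7, values that are raised because each member is part of the sum. Plscr2 stood at 84.6 and 133.7 CPM in general capillary cells and at 42.5 and 55.3 CPM in aerocytes, so that it too was higher in general capillary cells and in the metastatic library.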

How the data were processed

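The deposited files hold raw UMI counts per gene and barcode for 2 libraries. Per the labels and methods, the authors mapped the reads to mm10 with Cell Ranger (the file headers give version 3.1.0) and the matrices carry no cell filter. The sort of these libraries used PECAM1 alone. The members, lists and classes were chosen with earlier results of these data known. UMIs were summed per class and given as CPM with exact Poisson intervals. Ratios carry exact conditional binomial intervals, shares exact Clopper-Pearson intervals, and differences of ratios or shares combine those bounds by square-and-add. Genes with 50 or more UMIs over both libraries formed the background. The named genes are the 9 members, list genes with 50 or more UMIs in general capillary cells, and the 5 most alike genes, with log2(CPM + 10) as the scale. Of the list genes, those printed with values were chosen after their values were seen, and the others enter the counts only. Some results are not reported here. Ifng falls outside this rule and is named as the ligand. Doublets were kept, and leaving out the 407 and 334 barcodes most like simulated doublets was an alternative. Gene positions are those of GENCODE M21. The ratio was tested on simulated independent Poisson counts, which leave out the gathering of UMIs in some cells and the variation between mice. Scaling alternatives used edgeR 4.0.16 and DESeq2 1.42.0, and other steps Python 3.11.15 with numpy 2.4.6 and scipy 1.17.1.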

Additional observations from a re-analysis of the deposited data

Results flagged for a closer look

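In artery cells, Gbp3 had a log2 ratio of metastatic over control of −0.087 and Irf1 one of −0.118, whereas both genes had estimates above 0 in general capillary cells, aerocytes and vein cells. The artery values came from 14 and 13 UMIs of Gbp3 and 77 and 70 of Irf1, and both intervals held 0. Whether the artery ratios differ from those of the other classes was not tested between samples, since each group held 1 library.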

How the results depend on the processing

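No paired analysis was possible because each group held 1 library, and for the same reason no replicate could be left out. Intervals cover counting error only and leave out the variation between cells, and the artery class, with 63 and 59 cells, is limited by its counts. Of the alternative values of sums, shares and backgrounds, 92 stayed the same within their interval or, for counts, within 1.5-fold, 21 moved and 2 reversed. For the sum of the 9 members in general capillary cells, the log2 ratio was 0.35 without cells holding a UMI of another class's markers, 0.40 without barcodes with platelet UMIs, 0.35 with TMM scaling and 0.34 with DESeq2 size factors. Over all classes the last 3 gave 0.44, 0.39 and 0.38. In aerocytes it was 0.59 without doublets and 0.58 without barcodes with leukocyte UMIs. With 3 markers per class it was 0.58 in vein and 0.022 in artery cells. The sum of the guanylate-binding proteins in general capillary cells was 0.54 without platelet UMIs.

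Subtracting free RNA scaled on epithelial markers attributed 87.5% of control and 30.4% of metastatic general capillary UMIs to free RNA, and 112% in metastatic vein cells, which left no vein value. In general capillary cells Gbp2, Gbp3, Gbp4, Igtp and Irgm1 had no single value either. Their expected free RNA exceeded the control level, for example 79.9 against 73.3 CPM for Gbp2. The sum of the guanylate-binding proteins still includes Gbp2, Gbp3 and Gbp4. The free RNA profile of a library held 1 to 14 UMIs of each member. Under this subtraction the sum of the 9 members was −0.054 in general capillary cells, 0.66 over all classes and 1.07 in aerocytes. In general capillary cells the guanylate-binding proteins were at 3.38 and the immunity-related GTPases at −0.28, with Gbp7 at −1.48, Irgm2 at −0.015, Iigp1 at −1.45 and Irf1 at −1.27, and over all classes Gbp7 was at −0.34, Iigp1 at −0.24 and Irf1 at −0.30. A scaling without barcodes with over 10 epithelial UMIs, chosen after seeing the data, attributed 7.25% and 3.31% and gave 0.38 in general capillary cells and 0.58 in aerocytes. The alternatives that leave out barcodes with platelet UMIs or with over 10 epithelial UMIs, and the mean over all thinnings, were also chosen after seeing the data. The difference in the share of general capillary cells with 3 or more members was 3.96 percentage points at 1000 UMIs and 11.4 without thinning. Of all genes in general capillary cells, 3.83% were higher and 1.97% lower by 0.5 with 200 or more UMIs required, and 5.41% were lower with 20 or more.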
